A study of Mus musculus with 14 samples.

Results

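The 31 genes described here encode lysosomal enzymes, enzyme cofactors, lysosomal membrane proteins, proton pump subunits and 1 transcription factor of this organelle. They were chosen by name, as rows of the deposited table whose gene symbol is on the list, and all 31 listed genes had a row among the 24116 genes of the table. All 31 also passed the filter on low values, which required 10 normalized counts or more in 3 or more libraries, and were tested among 15637 genes.

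Lysosomes are acidic compartments in which hydrolases break down proteins, glycans, glycosaminoglycans and lipids delivered by endocytosis, phagocytosis or autophagy. A proton pump, the V-ATPase, keeps the lumen acidic, membrane glycoproteins line and shield the organelle, and the factor Tfeb can switch on many of its genes together. In demyelinated tissue of the central nervous system, macrophages and microglia take up myelin debris, and its galactosylceramide and sulfatide are degraded in their lysosomes.

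RNA was sequenced from microdissected ventral spinal cord of mice that all carried Cx3cr1-CreER, a tamoxifen-dependent recombinase expressed from the promoter of the fractalkine receptor, which is active in microglia and also in other myeloid cells. Non-ablated mice were Cx3cr1-CreER :Rosa26-iDTR-/- and ablated mice Cx3cr1-CreER :Rosa26-iDTR+/-, where iDTR is a diphtheria toxin receptor that recombination switches on. Every group received tamoxifen for 3 days, lysophosphatidylcholine (LPC, a lipid that strips myelin) into the ventral cord 4 to 6 weeks later, and diphtheria toxin each day until collection 5 days after LPC. The 4 groups were distal uninjured tissue (3 libraries, numbered 1, 3 and 5) and lesions (3 libraries, 2, 4 and 6) of non-ablated mice, and distal tissue (4 libraries, 7, 9, 11 and 13) and lesions (4 libraries, 8, 10, 12 and 14) of ablated mice. Each library is a pool of 3 to 5 males and females, so the pool is the replicate. Lesion and distal pieces came from the same sets of pools, but the labels do not tie a piece to its partner. Labelled ages run from 2 to 7 months in non-ablated and from 8 to 15 months in ablated libraries, so age as labelled and genotype cannot be told apart. The labels rise by 1 month per library, even between pieces that would share a pool, and cannot all be true ages.

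Libraries held 23601763 to 30844575 recovered reads. Cx3cr1, the gene that drives the recombinase, had 3892, 3657 and 4717 normalized counts in non-ablated lesions against 155, 240, 212 and 336 after ablation, which is -4.16 ± 0.51 on the log2 scale (SE, limma adjusted p = 0.00301). In distal tissue it had 864, 1361 and 510 normalized counts without ablation and 90.2, 21.7, 81.2 and 128 with it. Of 13 homeostatic microglia markers, P2ry12, P2ry13 and Gpr34 were at 0 in every library, and 6 of the 10 tested were lower in ablated lesions. The summed level of the 13 ran from 94535 to 119498 normalized counts in non-ablated lesions and from 20866 to 39291 in ablated lesions. In distal tissue 3 of the 10 tested were lower with ablation, and the sums overlapped, from 17548 to 41946 without it and from 5809 to 29477 with it, with Tmem119 at 26069 in ablated library 7. Of 11 pan-macrophage markers, 9 had negative fold changes in ablated lesions (median -0.48), 1 passed as lower and none as higher. Their summed level was nevertheless higher, 534766 to 864453 against 309039 to 460838, and Lyz2 made up most of it, with 474237 to 697525 in ablated and 196925 to 304690 in non-ablated lesions (limma adjusted p = 0.511). Markers of oligodendrocytes and astrocytes, which spinal cord should hold, were present in all libraries.

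Promoters are shown first for some of the members that held CACGTG or a related sequence. Tfeb and its relatives bind the palindrome CACGTG, known as the core of the CLEAR element in promoters of human lysosomal genes. Psap, Laptm5, Man2b1, Gm2a, Gusb and Hexa held neither CACGTG nor the related sequence and are not shown. RefSeq promoters of GRCm38.p6, from 250 bases before to 50 after the start site, were found for 28 of the 31 genes. Capitals mark CACGTG in the first 5 lines.
Lamp1: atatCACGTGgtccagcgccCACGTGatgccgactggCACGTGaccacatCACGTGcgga
Mcoln1: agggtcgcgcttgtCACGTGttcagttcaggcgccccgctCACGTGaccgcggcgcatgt
Glb1: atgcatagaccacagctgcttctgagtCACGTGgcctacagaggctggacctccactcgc
Atp6v1a: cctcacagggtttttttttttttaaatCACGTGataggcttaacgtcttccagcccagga
Gla: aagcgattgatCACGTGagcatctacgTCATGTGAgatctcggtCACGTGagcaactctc
In Gla, and in the next 3 lines, capitals also mark TCACATGA or its reverse complement, a related sequence bound by factors of the same family.
Grn: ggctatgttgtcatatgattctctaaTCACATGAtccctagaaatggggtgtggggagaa
Ppt1: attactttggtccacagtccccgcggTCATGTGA
Tpp1: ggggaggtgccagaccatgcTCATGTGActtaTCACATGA
The windows are chr8:13159096-13159155 (plus strand) for Lamp1, chr8:3500434-3500493 (plus) for Mcoln1, chr9:114401003-114401062 (plus) for Glb1, and chr16:44139358-44139417 (minus) for Atp6v1a. The others are chrX:134601184-134601243 (minus) for Gla, chr11:102430270-102430329 (plus) for Grn, chr4:122836214-122836247 (plus) for Ppt1 and chr7:105752212-105752251 (minus) for Tpp1.

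CACGTG stood in the promoters of 8 of the 28 genes (28.6%), which were Arsa, Atp6v0d1, Atp6v1a, Gla, Glb1, Lamp1, Mcoln1 and Sgsh. It stood in those of 8.09% of all 27025 genes with a promoter of the same length. Lamp1 had 4 copies within 61 bases of its start site. The longer palindrome TCACGTGA, which overlaps CACGTG, was found in 4 members (14.3%) and in 1.12% of all genes with a promoter. The sequence TCACATGA was found in Gla, Grn, Ppt1 and Tpp1 (14.3%) and in 1.15% of all genes with a promoter. The sequences GAGGAAGT, TGACGTCA and TGACTCA were found in 2, 1 and 3 members (7.14%, 3.57% and 10.7%), against 3.69%, 2.03% and 5.95% of all genes with a promoter. All 6 motifs thus had a higher share among members than among all genes. Both strands were searched for all 6 motifs. A match describes the letters of the window and was not tested for binding. In the lesion response described next, the genes with CACGTG ran from Gla, among the largest rises, to Arsa and Lamp1, which passed the test in neither genotype. Genes without it included Gusb, Grn, Hexa and Lipa, which had large rises, as well as Ids, Smpd1 and Tfeb. Whether the sequence goes with the response was not tested.

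The lesion response of this gene group was a broad rise. In non-ablated mice, 17 of the 31 genes rose in lesions over distal tissue, 2 fell and 12 did not pass the test, where 28.0% of all tested genes passed, 14.7% higher and 13.3% lower. In ablated mice 24 rose, 2 fell and 5 did not pass, against a background of 29.9%, 16.1% higher and 13.8% lower. The median log2 fold change of the 31 genes was 1.05 in non-ablated and 1.41 in ablated mice, and over all tested genes it was 0.07 and 0.05. Quantile scaling moved the median of all genes in ablated mice from 0.05 to -0.06, and the median of the 31 genes was then 1.49. In bulk tissue, a change in the number of cells of a type and a change of RNA per cell cannot be told apart. In the same libraries, the pan-macrophage sum rose from a range of 16266 to 34631 in non-ablated distal tissue to 309039 to 460838 in lesions, and the sum of 10 oligodendrocyte markers went from 1992450 to 2536540 down to 218697 to 336342. All 8 astrocyte markers fell in both genotypes (median -2.44 and -1.998), and of 6 fibroblast markers 6 rose in non-ablated and 5 in ablated mice (median 4.25 and 4.31). The part of these markers in the rise was not tested.

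**Figure D1:**
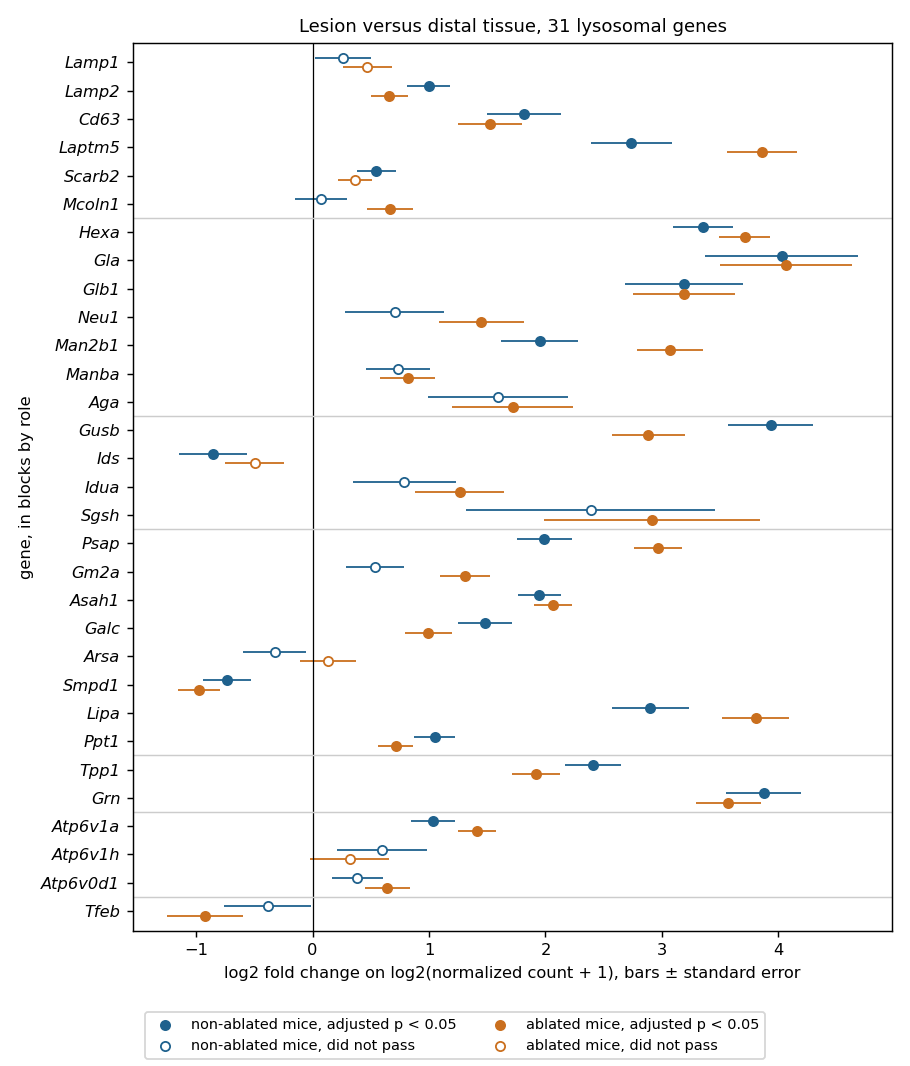
Log2 fold change of lesion over distal tissue (x axis, on log2(normalized count + 1), bars ± standard error) for the 31 lysosomal genes (y axis, in blocks by role) in non-ablated (blue) and ablated (orange) mice. Filled points passed a limma adjusted p under 0.05, 19 genes in non-ablated and 26 in ablated mice, and most points lie right of 0, with Ids, Smpd1 and Tfeb to the left in both.

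Lesions and distal libraries did not overlap for 22 members in the higher and 2 in the lower direction in non-ablated mice (49.2% of all genes did not overlap in either direction), and for 23 and 2 in ablated mice (30.1%).

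The same 16 genes rose in both genotypes, which is 94.1% of the rises in non-ablated mice and 66.7% of those in ablated mice. They were Asah1, Atp6v1a, Cd63, Galc, Gla, Glb1, Grn, Gusb, Hexa, Lamp2, Laptm5, Lipa, Man2b1, Ppt1, Psap and Tpp1. In the main test Scarb2 passed in non-ablated mice alone, and Aga, Atp6v0d1, Gm2a, Idua, Manba, Mcoln1, Neu1 and Sgsh in ablated mice alone. Under alternative processing, Aga, Manba and Sgsh each passed in non-ablated mice in 4 of 19 alternatives, Gm2a and Neu1 in 2 and Atp6v0d1 in 1. Scarb2 passed in ablated mice in 2 of 21. The difference between the genotypes was tested as an interaction, and no member passed it. Arsa, Atp6v1h and Lamp1 passed in neither. Across the 31 genes the log2 fold changes of the 2 genotypes had a Pearson r of 0.929, over pieces of different pools but one set of genes, which are not independent replicates.

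Together the 31 genes took 0.733 to 0.772% of recovered reads in non-ablated distal tissue and 0.629 to 0.776% in ablated distal tissue. In lesions they took 3.85 to 4.56% without ablation and 3.00 to 4.47% with it. These are shares of reads, so longer transcripts weigh more in them. Grn alone took 2.02 to 2.56% in non-ablated and 1.03 to 1.65% in ablated lesions, and without Grn the other members took 1.88 ± 0.10% (SD, n = 3) and 2.25 ± 0.44% (SD, n = 4).

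Membrane proteins moved unevenly. All 6 had positive fold changes in both genotypes, though that of Mcoln1 in non-ablated mice was below 0 without library 5 or 6 or with array weights, and 4 of 6 passed in each. Laptm5, a lysosomal membrane protein of blood-derived and microglial cells at chr4:130912890-130936148 in GRCm38.p6, had the largest rise. It had 3264, 4651 and 4004 normalized counts in non-ablated distal tissue and 22234, 21363 and 38005 in lesions. In ablated mice it had 660, 1610, 2049 and 1362 in distal tissue and 20949, 16878, 16721 and 22148 in lesions. Lesions and distal tissue did not overlap in either genotype, and distal tissue was lowest with ablation. The log2 fold changes were 2.74 ± 0.35 (limma adjusted p = 5.29e-05) and 3.86 ± 0.30 (limma adjusted p = 6.9e-07).

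Cd63, a tetraspanin of late endosomes and lysosomes, rose by a log2 fold change of 1.81 ± 0.32 and 1.53 ± 0.27, and Lamp2, which shields the membrane and serves chaperone-mediated autophagy, by 1.00 ± 0.18 and 0.66 ± 0.16. Scarb2, the receptor that carries glucocerebrosidase to lysosomes, had 0.55 ± 0.17 (limma adjusted p = 0.027) and 0.36 ± 0.15 (limma adjusted p = 0.0792). Its call in non-ablated mice was lost without library 5 (0.46, adjusted p = 0.0930), without library 6 (0.46, adjusted p = 0.113) or without library 2 (0.57, adjusted p = 0.0654), and with array weights (0.45, adjusted p = 0.05002), all by limma. Mcoln1, a calcium channel of the lysosomal membrane, had 0.07 ± 0.22 and 0.66 ± 0.19, and the call in ablated mice was lost without library 8 (0.58, limma adjusted p = 0.0507) or 14 (0.63, limma adjusted p = 0.0543). Lamp1, an abundant membrane glycoprotein, had 0.26 ± 0.24 and 0.47 ± 0.21. It passed in ablated mice without library 9 (0.63, limma adjusted p = 0.0216).

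Glycosidases that trim glycoproteins and glycolipids had a median log2 fold change of 1.95 in non-ablated and 3.07 in ablated mice. All 7 had positive fold changes in both genotypes, 4 passed in non-ablated mice and 7 in ablated mice. Gla, alpha-galactosidase A, which removes terminal galactose from glycolipids and carries the palindromes printed above, had 164, 144 and 244 normalized counts in non-ablated distal tissue and 2621, 3071 and 3163 in lesions. Ablated mice showed 32.0, 426, 234 and 214 in distal tissue and 2862, 2358, 2166 and 3784 in lesions. The groups stood far apart in both genotypes, although distal values with ablation spread widely between libraries 7 and 9. The log2 fold changes were 4.03 ± 0.65 (limma adjusted p = 0.000377) and 4.06 ± 0.57 (limma adjusted p = 8.76e-05).

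Hexa, the alpha subunit of beta-hexosaminidase, had 1764, 2175 and 1892 normalized counts in non-ablated distal tissue and 18479, 17085 and 24534 in lesions. Ablated libraries had 1002, 2040, 1690 and 1761 in distal tissue and 22693, 17388, 18397 and 24580 in lesions. The 2 sets of lesions covered nearly the same range, and both lay above all distal libraries. The rise was 3.35 ± 0.25 on the log2 scale in non-ablated mice (limma adjusted p = 1.26e-06) and 3.71 ± 0.22 in ablated mice (limma adjusted p = 1.12e-07).

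Glb1, beta-galactosidase, had 251, 552 and 164 normalized counts in non-ablated distal tissue and 2534, 2386 and 2878 in lesions. In ablated mice it had 145, 673, 215 and 352 in distal tissue and 3282, 2239, 2068 and 3406 in lesions. Its log2 fold changes were equal to 2 decimals, 3.19 ± 0.50 (limma adjusted p = 0.000301) and 3.19 ± 0.44 (limma adjusted p = 7.47e-05).

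Man2b1, the lysosomal alpha-mannosidase, had 1717, 2979 and 1248 normalized counts in non-ablated distal tissue and 7330, 5739 and 8744 in lesions. In the ablated groups there were 978, 630, 1063 and 601 in distal tissue and 5436, 5627, 7444 and 8642 in lesions. Lesions reached a similar level in both genotypes, and distal tissue was lower in every ablated library than in any non-ablated one. Its rise was 1.95 ± 0.33 (limma adjusted p = 0.0005) and 3.07 ± 0.28 (limma adjusted p = 2.67e-06).

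Neu1, a sialidase that removes terminal sialic acid, had 586, 1009 and 2035 normalized counts in non-ablated distal tissue and 1630, 1997 and 1605 in lesions, so that library 5 lay above every lesion of its genotype. The ablated mice had 563, 636, 714 and 479 in distal tissue and 2922, 1469, 932 and 1710 in lesions. The log2 fold change was 0.71 ± 0.42 in non-ablated mice (limma adjusted p = 0.246), or 1.17 without library 5 (limma adjusted p = 0.0442), and 1.45 ± 0.37 in ablated mice (limma adjusted p = 0.00782). Manba, the beta-mannosidase, had 0.73 ± 0.27 and 0.82 ± 0.24, and Aga, which cuts the bond between asparagine and its glycan, 1.59 ± 0.60 and 1.72 ± 0.52. Each passed with ablation alone in the main test, although lesion and distal levels of Aga overlapped in ablated and not in non-ablated mice. Both calls with ablation were lost without library 14, Manba at 0.74 (limma adjusted p = 0.0559) and Aga at 1.52 (limma adjusted p = 0.0713).

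Among the enzymes of glycosaminoglycan breakdown the directions differed. Gusb, beta-glucuronidase, had 2216, 2987 and 3001 normalized counts in non-ablated distal tissue and 39927, 37009 and 48202 in lesions. The ablated libraries gave 4718, 8166, 2674 and 3335 in distal tissue and 40237, 26566, 21447 and 44541 in lesions. Lesions exceeded distal tissue in every library, by 3.94 ± 0.36 on the log2 scale without ablation (limma adjusted p = 4.12e-06) and by 2.88 ± 0.32 with it (limma adjusted p = 1.13e-05).

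Ids, iduronate 2-sulfatase, had 1514, 1129 and 845 normalized counts in non-ablated distal tissue and 670, 662 and 547 in lesions. In ablated libraries Ids had 802, 844, 1135 and 1491 in distal tissue and 569, 736, 918 and 749 in lesions, and these groups overlapped. It fell by 0.86 ± 0.29 on the log2 scale in non-ablated mice (limma adjusted p = 0.0417), and the change was -0.50 ± 0.25 in ablated mice (limma adjusted p = 0.16). The fall in non-ablated mice passed with library 5 left out but not with library 1, 3, 2, 4 or 6 left out, at -0.65, -0.86, -0.91, -0.90 and -0.76 with limma adjusted p of 0.160, 0.0869, 0.0794, 0.0860 and 0.135. Nor did it pass with quantile or upper-quartile scaling (limma adjusted p = 0.0516 and 0.0647).

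Idua, which removes iduronic acid, had 0.79 ± 0.44 (limma adjusted p = 0.21) and 1.26 ± 0.38 (limma adjusted p = 0.0215). Sgsh, a sulfatase of heparan sulfate, had low levels, from 8.81 to 15.3 normalized counts in non-ablated distal tissue, 55.8 to 73.6 in non-ablated lesions, 0 to 42.7 in ablated distal tissue and 76.6 to 150 in ablated lesions. Its log2 fold change was 2.39 ± 1.07 (limma adjusted p = 0.116) and 2.91 ± 0.93 (limma adjusted p = 0.0279), or 1.63 ± 0.41 without library 9, which was at 0 (limma adjusted p = 0.00805). In ablated mice the calls of Idua and Sgsh were both lost without library 14 (1.15 and 2.75, limma adjusted p = 0.0670 and 0.0748) and without library 8 (1.21 and 2.87, limma adjusted p = 0.0517 and 0.0583), and that of Sgsh also without library 12 (2.96, limma adjusted p = 0.0529).

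**Figure D2:**
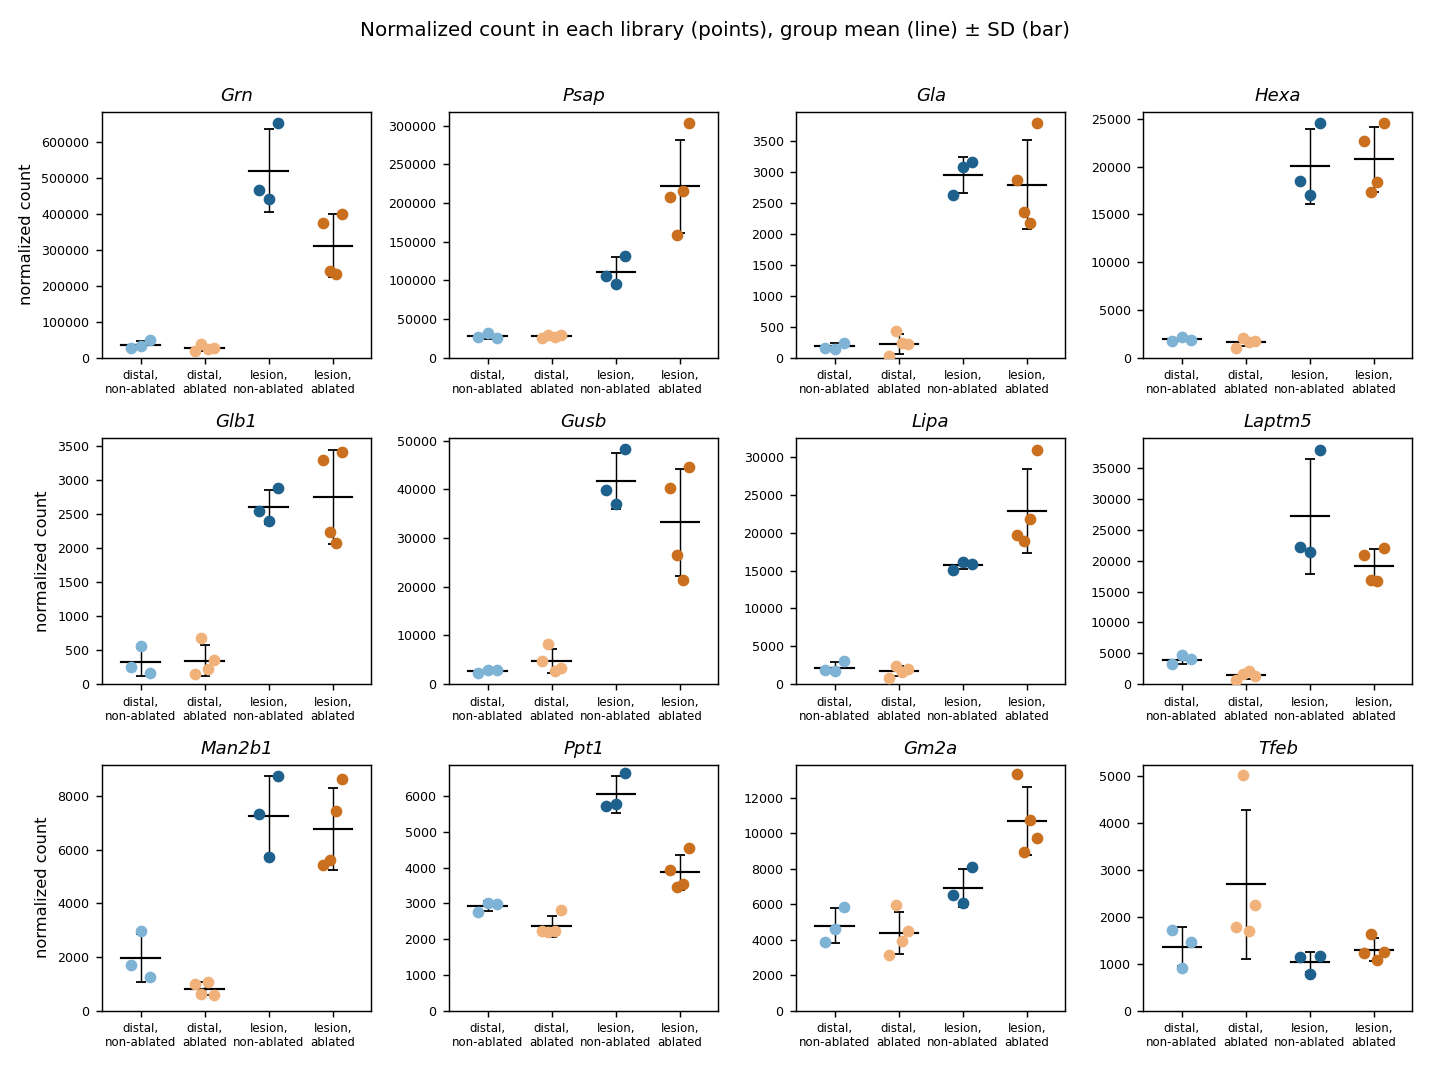
Normalized count (y axis, linear from 0) of 12 lysosomal genes in each library (points) of the 4 groups (x axis), with group means (lines) and SD (bars). Lesions lie above distal tissue in both genotypes for every gene shown except Tfeb. Psap is highest in ablated lesions (159173 to 304127), Ppt1 is highest in non-ablated lesions (5736 to 6657), and Tfeb peaks in 1 distal library of ablated mice (5027).

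Lipid-degrading enzymes and their helper proteins differed in direction. Of 8, 5 rose, 1 fell and 2 did not pass in non-ablated mice, and 6 rose, 1 fell and 1 did not pass in ablated mice. Psap, the precursor of the saposins that present sphingolipids to their hydrolases, lies at chr10:60277628-60302600. It had 26696, 31536 and 25127 normalized counts in non-ablated distal tissue and 105133, 95813 and 131916 in lesions. In mice with ablation the values were 25341, 29852, 26473 and 29168 in distal tissue and 207273, 159173, 216107 and 304127 in lesions. Distal levels overlapped between genotypes, and every ablated lesion lay above every non-ablated one. Its rise was 1.99 ± 0.24 (limma adjusted p = 2.95e-05) and 2.96 ± 0.20 (limma adjusted p = 2.9e-07).

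Lipa, the acid lipase that frees cholesterol and fatty acids from esters, had 1818, 1707 and 2990 normalized counts in non-ablated distal tissue and 15102, 16168 and 15868 in lesions. In ablated mice it had 855, 2347, 1643 and 1984 in distal tissue and 19665, 18882, 21790 and 30969 in lesions. Both sets of lesions lay well above distal tissue. The log2 fold changes were 2.90 ± 0.33 (limma adjusted p = 2.2e-05) and 3.81 ± 0.29 (limma adjusted p = 5.85e-07).

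Galc, which degrades the myelin lipid galactosylceramide, had 801, 842 and 1155 normalized counts in non-ablated distal tissue and 2497, 2484 and 2722 in lesions. Its levels under ablation were 1123, 1370, 1102 and 1681 in distal tissue and 2531, 2559, 2094 and 3298 in lesions. Lesion levels overlapped between genotypes and lay above all distal levels, with rises of 1.48 ± 0.23 (limma adjusted p = 0.000292) and 0.99 ± 0.20 (limma adjusted p = 0.00177). Arsa, the sulfatase of the other major myelin glycolipid, sulfatide, had -0.33 ± 0.27 and 0.13 ± 0.24 and passed in neither genotype. Asah1, acid ceramidase, rose by 1.95 ± 0.18 and 2.06 ± 0.16.

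Gm2a, an activator protein that lifts a ganglioside out of the membrane for beta-hexosaminidase, had 3890, 4596 and 5862 normalized counts in non-ablated distal tissue and 6527, 6045 and 8110 in lesions. After ablation the counts were 3150, 5951, 3917 and 4510 in distal tissue and 13356, 8955, 10768 and 9746 in lesions. The groups did not overlap in either genotype. The change was 0.54 ± 0.25 in non-ablated mice (limma adjusted p = 0.128) and 1.31 ± 0.22 in ablated mice (limma adjusted p = 0.000343).

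Ppt1, which removes fatty acids from proteins, had 2771, 3002 and 2999 normalized counts in non-ablated distal tissue and 5736, 5779 and 6657 in lesions. Normalized counts with ablation were 2218, 2190, 2223 and 2809 in distal tissue and 3941, 3449, 3549 and 4540 in lesions. Lesions were higher than distal tissue in both genotypes, by 1.05 ± 0.18 (limma adjusted p = 0.000497) and 0.71 ± 0.15 (limma adjusted p = 0.00263).

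Smpd1, acid sphingomyelinase, went the other way. It had 2651, 2626 and 2571 normalized counts in non-ablated distal tissue and 1569, 1452 and 1706 in lesions. In ablated tissue it stood at 3263, 4679, 2733 and 3071 in distal tissue and 1787, 1904, 1486 and 1689 in lesions. Every lesion lay below every distal library, and it fell by 0.73 ± 0.21 (limma adjusted p = 0.0161) and by 0.98 ± 0.18 (limma adjusted p = 0.000831) on the log2 scale. The call in non-ablated mice was lost without library 4 (-0.68, limma adjusted p = 0.0685).

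Both members of the block of peptidase and progranulin rose in both genotypes. Grn, which encodes progranulin, a secreted and lysosomal glycoprotein that is cleaved into granulins, lies at chr11:102430507-102436809. It had 26774, 32897 and 48585 normalized counts in non-ablated distal tissue and 466451, 442599 and 652319 in lesions. Under ablation there were 18222, 36642, 23501 and 26789 in distal tissue and 373508, 241557, 231385 and 398477 in lesions. Lesions were higher in every library of both genotypes, and no ablated lesion reached the level of a non-ablated one. Its rise was 3.87 ± 0.32 (limma adjusted p = 1.96e-06) and 3.57 ± 0.28 (limma adjusted p = 6.73e-07).

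Tpp1, a peptidase that removes tripeptides, had 3254, 4328 and 2361 normalized counts in non-ablated distal tissue and 16898, 17063 and 17344 in lesions. Counts in ablated mice were 3824, 3187, 2911 and 3947 in distal tissue and 11550, 10919, 12669 and 17839 in lesions. Libraries 8, 10 and 12 lay below the non-ablated range and library 14 above it. The log2 fold changes were 2.41 ± 0.24 (limma adjusted p = 7.12e-06) and 1.92 ± 0.21 (limma adjusted p = 1.05e-05).

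Of the pump subunits, Atp6v1a, the catalytic subunit of the V-ATPase, had 9100, 8029 and 7810 normalized counts in non-ablated distal tissue and 15853, 17994 and 17144 in lesions. For ablated mice the counts were 8012, 6537, 9540 and 8367 in distal tissue and 18133, 19688, 23189 and 25361 in lesions. Lesions did not overlap distal tissue, with rises of 1.03 ± 0.19 (limma adjusted p = 0.000915) and 1.41 ± 0.16 (limma adjusted p = 1.78e-05). Atp6v0d1, a subunit of the membrane sector, had 0.38 ± 0.22 (limma adjusted p = 0.221) and 0.64 ± 0.19 (limma adjusted p = 0.0191), and its call with ablation was lost without library 7, 8, 11 or 14 (0.55 to 0.58, limma adjusted p = 0.0507 to 0.0678). Atp6v1h, a subunit of the cytosolic sector, had 0.60 ± 0.39 and 0.32 ± 0.34 and passed in neither genotype.

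Tfeb, the regulator of the group, had 1707, 916 and 1469 normalized counts in non-ablated distal tissue and 1141, 782 and 1158 in lesions. The counts with ablation were 1780, 5027, 1697 and 2246 in distal tissue and 1218, 1641, 1067 and 1239 in lesions. The groups overlapped in non-ablated mice, and in ablated mice library 9 stood far above the other distal libraries. The change was -0.38 ± 0.37 in non-ablated mice (limma adjusted p = 0.491), and in ablated mice it fell by 0.92 ± 0.32 (limma adjusted p = 0.0437). That call was lost without library 9 (-0.57, limma adjusted p = 0.0982) and also without library 8, 12, 13 or 14, at -0.84 to -0.96 with limma adjusted p from 0.0641 to 0.107. It was lost too with no filter, with the age term and with array weights (limma adjusted p = 0.0524, 0.0671 and 0.0695). With only the groups compared and with libraries 5 and 6 left out it did not pass either, which makes 10 of 21 alternatives.

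Ablated and non-ablated lesions were then compared directly, which asks what differed at the lesion between the genotypes. No member passed limma, where 0.294% of all tested genes did. No member passed edgeR either (0.301% of all genes passed), and 2 passed DESeq2 (1.68% of all genes), Psap and Ppt1. With array weights in limma 4 members passed (6.48% of all genes), and the same 4 had an unadjusted limma p under 0.05, as did 7.21% of all genes. These were Psap and Gm2a, with more RNA in ablated lesions, and Grn and Ppt1, with less. The groups did not overlap for 5 genes in the higher direction, Psap, Gm2a, Lipa, Atp6v1a and Sgsh, and for 2 in the lower, Grn and Ppt1, where 16.0% of all genes did not overlap. The median log2 fold change of the 31 genes was 0.05 and that of all genes 0.01. With labelled age as a linear covariate these medians were -0.19 and 0.01. Of the 31 genes, 9 then had positive fold changes, against 17 in the main test.

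Psap was 1.96 times as high in ablated as in non-ablated lesions, a log2 fold change of 0.97 ± 0.22 (limma adjusted p = 0.0971), and higher in 4 of 4 ablated lesions. It passed DESeq2 (1.00, adjusted p = 0.00203) and limma with array weights (1.08, adjusted p = 0.00137). It was 0.60 with quantile scaling (limma adjusted p = 0.483) and 0.60 with labelled age as a linear covariate (limma adjusted p = 0.675). In distal tissue the same contrast for Psap was -0.00 ± 0.22, and the interaction was 0.97 ± 0.31 (unadjusted p = 0.00736, limma adjusted p = 0.745).

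Ppt1 had a log2 fold change of -0.65 ± 0.17 (limma adjusted p = 0.164) and was lower in 4 of 4 ablated lesions. It passed DESeq2 (-0.65, adjusted p = 0.00625) and limma with array weights (-0.60, adjusted p = 0.00477). It did not pass in the other 18 of 20 alternatives, and its log2 fold change over all of them ran from -0.95 to -0.58. In distal tissue its value was -0.32 ± 0.17 (limma adjusted p = 0.574).

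Grn was at -0.76 ± 0.30 (limma adjusted p = 0.517), lower in 4 of 4 ablated lesions. It was at -1.50 with quantile scaling (limma adjusted p = 0.00932), at -0.69 with array weights (limma adjusted p = 0.0433) and at -1.25 with the age term (limma adjusted p = 0.426). Distal tissue gave -0.46 ± 0.30 for Grn (limma adjusted p = 0.682).

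Gm2a stood at 0.63 ± 0.23 (limma adjusted p = 0.463), and with array weights at 0.63 (limma adjusted p = 0.00885). It did not pass in the other 19 of 20 alternatives. Atp6v1a was at 0.33 ± 0.18 (limma adjusted p = 0.818), or 0.06 with the age term (limma adjusted p = 0.978), and Tpp1 at -0.40 ± 0.22 (limma adjusted p = 0.897). Lipa, whose lesion levels did not overlap, was at 0.51 ± 0.31 (limma adjusted p = 0.932). The other members ranged from -0.47 for Aga to 0.69 for Sgsh, whose standard error was 1.00. Beside these values, 6 of 10 homeostatic microglia markers fell, and 9 of 11 pan-macrophage markers had negative fold changes while Lyz2 was at 1.37 ± 0.54 (limma adjusted p = 0.511). The part of either list in the values of Psap, Gm2a, Grn and Ppt1 was not tested.

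**Figure D3:**
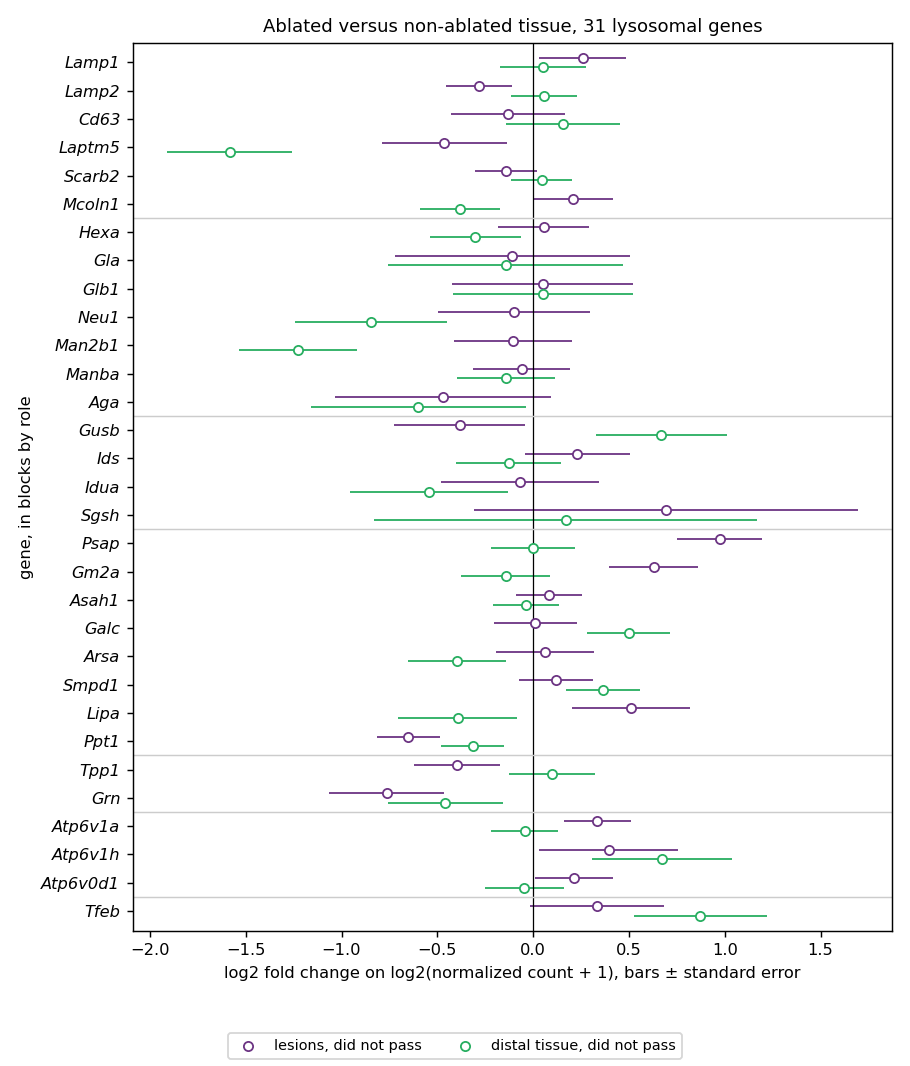
Log2 fold change of ablated over non-ablated tissue (x axis, on log2(normalized count + 1), bars ± standard error) for the 31 lysosomal genes (y axis, in blocks by role) in lesions (purple) and distal tissue (green). All points are open because none passed a limma adjusted p under 0.05, and the points farthest from 0 are Laptm5 (-1.58) and Man2b1 (-1.23) in distal tissue and Psap (0.97) in lesions.

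The pair Psap and Grn was set side by side after these values were seen, because prosaposin and progranulin bind each other on their way to the lysosome, so no test is given. Comparing the reads of 1 gene with those of the other within a library needs no scaling between libraries. The log2 ratio of Psap to Grn reads was -2.15, -2.21 and -2.31 in non-ablated lesions and -0.85, -0.60, -0.10 and -0.39 in ablated lesions. These groups did not overlap, with means of -2.22 ± 0.08 (SD, n = 3) and -0.48 ± 0.32 (SD, n = 4). Every ablated lesion already had more Psap and less Grn than every non-ablated one. The gap in the ratio follows from those values and is no separate result. In distal tissue the log2 ratio was -0.00, -0.06 and -0.95 without ablation and 0.48, -0.30, 0.17 and 0.12 with it, and these groups overlapped. The ratio shows that the reads of the genes changed unequally, not which of them changed.

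**Figure D4:**
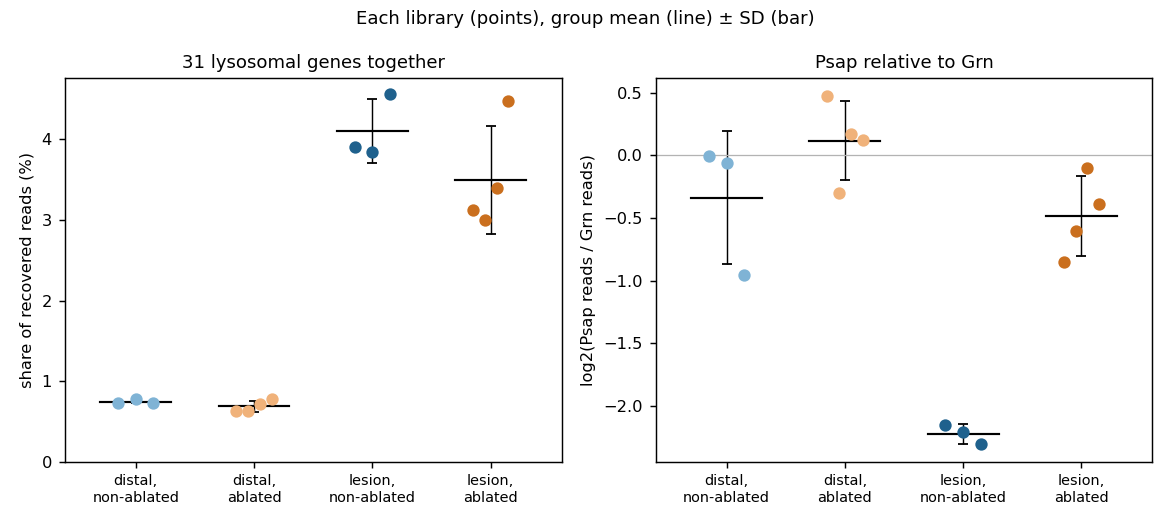
Share of recovered reads in the 31 lysosomal genes together (left, %) and log2 ratio of Psap to Grn reads (right) in each library (points) by group, with group means (lines) and SD (bars). The share is 3.00 to 4.56% in lesions and below 0.78% in distal tissue, and the ratio in non-ablated lesions (-2.31 to -2.15) lies below all other libraries. The gap between the lesion groups follows from the levels of Psap and Grn, a pair chosen after their values were seen.

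In distal, uninjured tissue no member passed limma or edgeR between ablated and non-ablated mice, where 0.365% of all genes passed limma and 0.403% edgeR. DESeq2 called 2 members, Laptm5 and Man2b1, where it called 3.4% of all genes, and 4 members, Laptm5, Man2b1, Tfeb and Galc, had an unadjusted limma p under 0.05, as did 9.69% of all genes. The groups did not overlap for Smpd1 in the higher direction and for Laptm5 and Man2b1 in the lower, where 5.49% of all genes did not overlap. The median log2 fold change of the members was -0.05, or -0.38 with labelled age as a linear covariate. Of the 31 members, 7 then had positive fold changes, against 12 in the main test.

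Laptm5 was at 0.334 times its non-ablated distal level, a log2 fold change of -1.58 ± 0.33 (limma adjusted p = 0.0575), and lower in 4 of 4 ablated libraries. It passed limma without library 9 (-1.68, adjusted p = 0.0460), without library 11 (-1.80, adjusted p = 0.0278), with TMM scaling (-1.62, adjusted p = 0.0471) and with quantile scaling (-1.56, adjusted p = 0.0363), and it passed DESeq2 (-1.48, adjusted p = 0.00250). It did not pass in 15 of the 20 alternatives, over all of which its log2 fold change ran from -2.31 to -1.25. Man2b1 was at -1.23 ± 0.31 (limma adjusted p = 0.141), lower in 4 of 4 ablated libraries, and passed DESeq2 (-1.28, adjusted p = 0.0112). Man2b1 did not pass in the other 19 of 20 alternatives, and its log2 fold change over all of them ran from -1.51 to -0.89. Cx3cr1 fell in the same distal libraries by 3.62 ± 0.51 on the log2 scale (limma adjusted p = 0.00922), and the part of such cells in the values of Laptm5 and Man2b1 was not tested.

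Tfeb was at 0.87 ± 0.35 (limma adjusted p = 0.421), or 0.52 without library 9 (limma adjusted p = 0.522). Galc was at 0.50 ± 0.22 (limma adjusted p = 0.482), or 0.05 with the age term (limma adjusted p = 0.968). Neu1 was at -0.85 ± 0.40 (limma adjusted p = 0.52), but at -0.38 without library 5 and -1.28 without library 1 (limma adjusted p = 0.846 and 0.172). Gusb was at 0.67 ± 0.34 (limma adjusted p = 0.563), or 0.36 without library 9 (limma adjusted p = 0.717) and 0.37 with array weights (limma adjusted p = 0.976).

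The difference between the lesion responses of the genotypes was tested for each gene as an interaction. No member passed limma, edgeR or DESeq2, 0.0128% of all genes passed limma, 0.0128% edgeR and 0.62% DESeq2, and 5 members had an unadjusted limma p under 0.05, as did 5.66% of all genes. Of the 5, Psap (0.97 ± 0.31), Man2b1 (1.12 ± 0.43), Laptm5 (1.12 ± 0.46) and Gm2a (0.77 ± 0.33) had larger values in ablated mice and Gusb (-1.05 ± 0.48) a smaller one. Between genotypes, the lesion levels of Psap did not overlap and its distal levels did, and the reverse held for Man2b1 (limma adjusted p = 0.808 for the interaction).

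Spread within groups was smallest in non-ablated lesions, where the median coefficient of variation over the 31 genes was 11.3%. It was 20.8% in non-ablated distal tissue, 27.5% in ablated distal tissue and 19.1% in ablated lesions. Library 6 had the highest level of its group for 25 of 31 genes and library 14 for 21 of 31. Among distal libraries of ablated mice, library 9 was highest for 15 genes and lowest for 8. Libraries 5 and 6 had the highest sums of T and NK cell markers of their groups (957 and 867 normalized counts), and without both of them 16 members rose and none fell in non-ablated lesions, while Ids (-0.97), Smpd1 (-0.81) and Scarb2 (0.37) no longer passed, at limma adjusted p of 0.0724, 0.0550 and 0.252.

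Other genes of the organelle were taken as lists of known function. The counts of each list stand beside the shares of all tested genes. These were 14.7% higher and 13.3% lower in non-ablated lesions, and 16.1% higher and 13.8% lower in ablated lesions. Of 29 further hydrolases, 18 rose in non-ablated lesions and 17 in ablated lesions, and none fell. The serine peptidase gene Dpp7 rose by 4.08 ± 0.31 and 4.17 ± 0.27 (limma adjusted p = 1.22e-06 and 1.59e-07). Of 25 further membrane genes tested, 12 rose and 1 fell in non-ablated lesions and 13 rose and 1 fell in ablated lesions, and the gene that fell was Laptm4b in both. Gpnmb, a membrane glycoprotein of phagocytes, had the smallest p, with 7.13 ± 0.46 and 7.11 ± 0.40 (limma adjusted p = 8.35e-07 and 7.22e-08).

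Of 19 further V-ATPase genes tested, 7 rose and 1 fell in non-ablated lesions, and 9 rose and 1 fell in ablated lesions. Atp6v0d2, a subunit known from osteoclasts and macrophages, had 0.998, 0 and 1.27 normalized counts in non-ablated distal tissue and 962, 1081 and 755 in lesions. In ablated mice it had 3.56, 1.67, 1.83 and 15.2 in distal tissue and 1863, 2321, 2310 and 3759 in lesions. It was thus near 0 in distal tissue and highest in ablated lesions, where the difference from non-ablated lesions was 1.42 ± 0.59 (limma adjusted p = 0.581). The gene of the pump that fell in both genotypes was Atp6v0e2.

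Of 13 sorting genes, 4 rose and 2 fell in each genotype, and the falls are near the share of all genes (13.3% and 13.8%). Igf2r, the large mannose 6-phosphate receptor that carries hydrolases to lysosomes, rose by 2.45 ± 0.35 and 2.78 ± 0.30 (limma adjusted p = 0.000143 and 1.17e-05). Sort1, sortilin, which also sorts hydrolases and takes up progranulin, fell by 1.65 ± 0.23 and by 1.23 ± 0.20 on the log2 scale (limma adjusted p = 0.000124 and 0.000349). Of 18 regulators, 6 rose in non-ablated lesions and 5 rose and 1 fell in ablated lesions. Among the relatives of Tfeb in that list, Tfe3 rose by 1.10 ± 0.26 and 0.72 ± 0.22, Tfec by 2.96 ± 0.97 and 4.92 ± 0.84, and Mitf had 0.32 ± 0.22 and 0.47 ± 0.19 and passed in neither (limma adjusted p = 0.305 and 0.0737). Tfe3, Tfec and Mitf were picked out for their kinship to Tfeb after their values were seen.

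Over these 5 lists, with 29, 25, 19, 13 and 18 genes tested, 1 gene passed limma between ablated and non-ablated lesions. In distal tissue 1 passed. Of all tested genes, 0.294% passed in lesions and 0.365% in distal tissue. Arsb, a sulfatase of dermatan and chondroitin sulfate, had 8652, 7087 and 6816 normalized counts in non-ablated lesions and 2550, 2698, 1946 and 3565 in ablated lesions, against 1507 to 2148 in all distal libraries. Ablated lesions lay below every non-ablated lesion, library 12 within the distal range, and the log2 fold change was -1.51 ± 0.21 (limma adjusted p = 0.00755). The lesion response of Arsb was 2.06 ± 0.23 in non-ablated mice and 0.40 ± 0.20 in ablated mice, and the interaction was -1.66 ± 0.30 (limma adjusted p = 0.181). Slc11a1, a metal transporter of phagocyte lysosomes, had 356, 563 and 298 normalized counts in non-ablated distal tissue and 33.2, 71.8, 97.6 and 128 in ablated distal tissue, and it fell by 2.39 ± 0.39 on the log2 scale (limma adjusted p = 0.0237). In lesions Slc11a1 had 2244, 2180 and 2405 without ablation and 3339, 2979, 2225 and 3937 with it, which overlapped.

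Reads of overlapping genes limit some of these values, since the use of strand in counting is not given. In the RefSeq annotation of GRCm38.p6, 12 of the 31 members overlap another gene, and the partner is protein-coding for Hexa (Tmem202), Glb1 (Tmppe), Idua (Dgkq and Slc26a1), Sgsh (Card14 and Slc26a11), Asah1 (Frg1) and Ppt1 (Cap1).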

How the data were processed

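Per the labels' protocols, RNA of RIN above 0.68 (as written there) was amplified by multiple displacement with a Qiagen kit for single-cell RNA and read for 75 cycles on a NextSeq. Tools named in the submitters' processing notes are BWA 0.7.17.1, bcl2fastq and DESeq2, with the mm10 build. Which counter, strand setting and annotation were used is not given in the sources used here. Values were deposited under the name of DESeq2 normalized counts, a signal in which the counts of each library are divided by its size factor. The smallest step of each column returned whole reads for 100% of values within 0.01. The step of distal_control 1 is near 1 (0.998338), but its values, such as 324.46 for Acp2, are not whole before division by it.

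Sample titles gave the groups. In the main test, limma 3.58.1 (trend, R 4.3.3) was run on log2(normalized count + 1), in 1 fit of 4 group means over 14 libraries with 10 residual degrees of freedom and 4.23 from the prior, so all groups share 1 spread per gene. Fold changes are on that scale and understate changes of low genes. The Benjamini-Hochberg adjustment ran over the 15637 genes of a comparison, and an adjusted p under 0.05 was a call. P-values measure the spread between these pools. Libraries within groups differed beyond sampling noise, with a chi-square of 33.2 or more per degree of freedom. The 8 entries without a symbol (0.00265 to 0.0239% of reads) were not named.

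The members and gene lists were chosen with earlier results of these data known. Values in every library are given for the 6 members with the smallest unadjusted p in each ablation comparison, the 2 smallest in the interaction, and the 6 largest rises and up to 4 falls among called members of each lesion comparison. Of other lists, up to 3 genes with the smallest p could be named, and any others are marked as picked later. A gene that this rule takes is not reported here. The 6 promoter motifs were chosen after values were seen. Alternatives were scaling by TMM, upper quartile or quantiles, pseudocounts of 0.5 and 10, a filter at 50 or none, array weights, labelled age as a linear covariate, the compared groups alone, each replicate left out, libraries 5 and 6 left out, and edgeR 4.0.16 and DESeq2 1.42.0 on recovered reads. The limma, edgeR and DESeq2 steps were run on simulated counts with the same spread setting for every gene, scored for ablated versus non-ablated lesions alone. The simulation checks the code and does not show how the tests behave at the unequal spread of these libraries.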

Additional observations from a re-analysis of the deposited data

Results flagged for a closer look

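In the 4 distal libraries and 4 lesion libraries of ablated mice, 62 gene and group combinations were checked for 1 library far from the rest, and chance gives about 1 in 20. The count of 2 that stood out is below that. Sgsh was at 0 in distal_ablated 9, where the other 3 libraries had 24.6 to 42.7 normalized counts, and on log2(normalized count + 1), the scale of the check, the gap took 0.859 of the range (0.577 on the counts themselves, which would not stand out). That 0 allows up to 3 reads, or 5.01 normalized counts. Ppt1 was at 2809 normalized counts in distal_ablated 13, where the others had 2190 to 2223, and the gap took 0.94 of the range on that scale.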

How the results depend on the processing

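No paired analysis was possible because the labels number the libraries 1 to 14 without repeats and tie no lesion piece to a distal piece. Among ablated and non-ablated lesions, the count of members called was 0, but 1 with quantile scaling, 4 with array weights and 2 with DESeq2. In distal tissue it was 0, but 1 with TMM scaling, 1 with quantile scaling and 2 with DESeq2. Leaving out 1 replicate gave 0 to 0 members in lesions, 0 to 1 in distal tissue, 0 to 0 in the interaction, 17 to 19 for the lesion response of non-ablated mice and 19 to 26 for that of ablated mice. Each time a replicate left a group with 2 or 3 libraries, spread was pooled over groups. For the lesion response of ablated mice, 21 members passed with only the groups compared and 24 with edgeR, against 26, and Aga and Sgsh fell short in both. The interaction has no fit with only the groups compared, since it uses all of them. The count over all genes in lesions was 46, 1013 with array weights, 416 with only the groups compared, 262 with DESeq2, 98 with a pseudocount of 10, 90 with quantile scaling and 2 with the age term. In distal tissue it was 57, 532 with DESeq2, 7 with the age term and 0 with only the groups compared. Directions reversed for Arsa in ablated mice (-0.13 with array weights, -0.061 without distal_ablated 9, and -0.061 to 0.33 over all replicates left out) and for Mcoln1 in non-ablated mice (-0.052 with array weights, -0.032 without distal_control 5, -0.046 without lesion_control 6, -0.15 without both, and -0.046 to 0.18 over all replicates left out), none of them called, and the cause was not tested. Of the other comparisons of a single member under an alternative, 1445 kept direction and side of the threshold, 36 moved past it and 45 fell short of it.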
